A study of Eutrema salsugineum with 2 samples.

Results

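The genes described here encode parts of the chromatin machinery of Eutrema salsugineum, a salt-tolerant crucifer: a histone, a histone deacetylase, a chromatin reader, a cohesin subunit, an Argonaute and a chromatin remodeller. They are 6 of the 17888 genes with reads in the deposited table, named after their best A. thaliana hits. They were chosen by identifier, with their raw reads in both libraries already known, so the reads below are a description and were not tested. Reads were counted in 1 library of each accession: YK, collected in the Yukon, and SH, collected in Shandong. Per the labels, YK is the more drought-tolerant accession, with more rosette biomass and thinner leaves, and SH the less drought-tolerant one, with less biomass and thicker leaves. Plants of both were 4 weeks old, well watered and grown in a 12 h photoperiod (22 °C by day, 20 °C by night), and whole rosettes were taken halfway through the night. The series describes each library as 1 replicate pooled from 5 plants, although the extraction protocol speaks of several such pools, and the table has 1 column of each accession. So no difference between the accessions has a replicate check, and each ratio compares libraries.

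DNA in the nucleus is wrapped around histones, and the access of other proteins to it is set by which histone variants are present, by marks that enzymes add to or remove from the histones, by reader proteins that bind those marks and by remodellers that move nucleosomes with energy from ATP. Cohesin holds sister chromatids together as a ring, and Argonaute proteins carry small RNAs that guide silencing. Histone messages in plants are polyadenylated, so they enter libraries made from poly(A) RNA.

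The YK library held 431705 reads on genes and the SH library 482275, and the median-of-ratios size factors were 1 for both, so reads were compared as deposited. The ratio is YK over SH on the log2 scale, with 0.5 reads added to each count, and its 95% interval comes from the Clopper-Pearson interval of the YK share of a gene's reads. Intervals cover counting error only. Levels in RPM are a gene's reads scaled to a library of 1000000 reads on genes, and the floor for a count of 0, a limit on 1 side only and so below the upper Poisson bound, is 3 reads, which is 6.95 RPM in YK and 6.22 RPM in SH. In whole rosettes, fewer cells of a type and less RNA per cell cannot be told apart.

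All 6 genes had at least 10 reads in the libraries together. Of these, 5 were more than 2-fold lower in YK and PKL was not past this fold in either direction. Among the 10036 genes with at least 10 reads, 10.7% were past 2-fold lower in YK and 10.7% past 2-fold higher, 21.4% in all. Scaling by total reads would raise every log2 ratio by 0.16 and turn this split of 1071 lower and 1077 higher genes into 793 lower and 1400 higher, with the same 5 and 0 of the 6 genes past 2-fold. The counting interval left out a ratio of 1 for the same 5 genes, as it did, in genes past 2-fold lower, for 6.41% of all genes (5.54% for genes past 2-fold higher). H2A 6, HDT1 and ING1 were also past 4-fold lower, as was AGO9 with 0.5 reads added to its count of 0, against 2.26% of all genes lower and 1.94% higher. For H2A 6, HDT1, ING1 and AGO9 the whole interval lay past 2-fold lower, against 1.8% of all genes. AGO9 reached the minimum of 10 reads through SH alone. Any gene with no YK reads that reaches it is lower in YK by each of these measures, so the calls of AGO9 were fixed by the minimum. The members were picked for such values, and nothing is read from these counts. The same holds where the ratio interval of a member does not overlap with that of another gene. The 6 genes lie on 4 scaffolds of the JGI genome of Phytozome v9.1. Together they had 70 reads in YK and 443 in SH, of which H2A 6 contributed 45.7% in YK and 66.6% in SH.

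**Figure D1:**
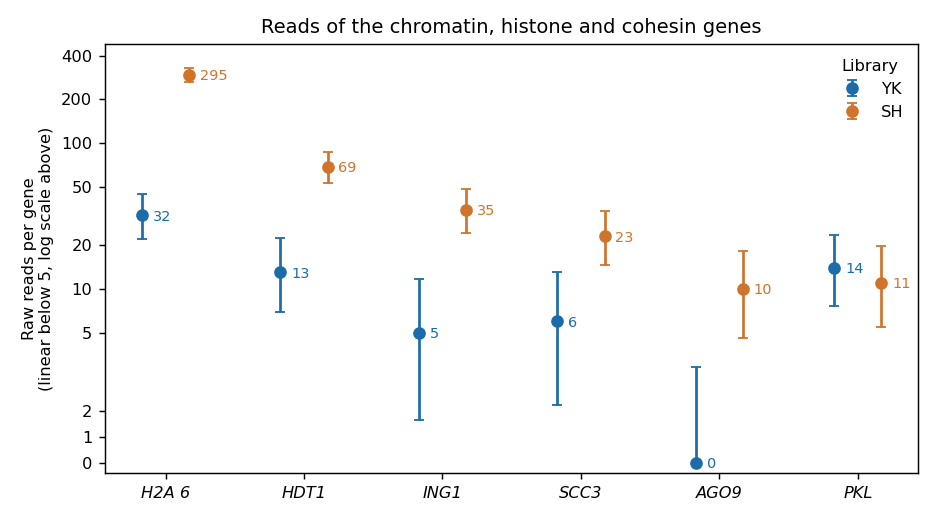
Raw reads of each gene in the YK library (blue) and the SH library (orange), on an axis that is linear below 5 reads and logarithmic above. Bars are exact 95% Poisson intervals of each count; the bars of PKL overlap, with 14 and 11 reads, and those of the other 5 genes do not.

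Histone H2A 6 (Thhalv10014933m.g, best hit AT5G59870) had the most reads of the group. In A. thaliana the gene of this hit encodes a histone of the H2A.W class, a variant found in heterochromatin, the condensed and mostly silent part of the genome. The locus lies on scaffold 2 from 8270656 to 8271428 and is 773 bp long. It had 32 reads in YK (exact Poisson interval 21.9 to 45.2) and 295 in SH (262 to 331), or 74.1 RPM in YK and 612 RPM in SH. The log2 ratio was -3.18 (interval -3.78 to -2.68), which is 9.09-fold lower in YK (6.39 to 13.7). By reads it ranked 2446 among the genes in YK and 181 in SH. Among 777 genes with a total within 2-fold of its own, 6 had a ratio as low or lower, H2A 6 included.

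The study's primer list holds a pair for this gene, shown here because it belongs to the one gene of the group for which a second measurement was planned. Quantitative PCR was then not run, since close paralogs left no primer pair that matched this gene alone. The letters are in lower case throughout because no part of them is singled out.
H2A 6 forward primer: cgctgcgagagacaacaaga
H2A 6 reverse primer: gcgattgtgactccactgagaa
The forward primer has 20 bases and the reverse primer 22. The paralogs also bear on the reads: a read that fits several copies equally well was not counted, so how reads divide between near-identical H2A copies is uncertain.

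The other core histone messages identified here came from 2 genes with the best hit HTB9, which encodes histone H2B, the partner of H2A in the nucleosome. Thhalv10002699m.g had 45 reads in YK and 35 in SH, with a log2 ratio of 0.36 (interval -0.31 to 1.04). Thhalv10002705m.g had 34 reads in YK and 56 in SH, with a log2 ratio of -0.71 (interval -1.38 to -0.08). Neither was past 2-fold, their signs were opposite, and both intervals lay above that of H2A 6. Per kb of locus, H2A 6 had 41.4 reads in YK and 382 in SH, while the H2B genes had 55.7 and 45.3 in YK and 43.3 and 74.6 in SH. In SH the H2A 6 level per kb (339 to 428) lay above the Poisson intervals of both H2B genes. In YK its interval (28.3 to 58.4) overlapped with both, so no order can be given there. The H2B genes share a best hit, so the split of reads between them is uncertain too.

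Genes of DNA replication and the cell cycle were examined beside the histone because histone messages are known to follow DNA synthesis. Of 15 such genes, 5 had at least 10 reads. Among them, 1 was past 2-fold lower in YK and 1 past 2-fold higher, against 10.7% of all genes in each direction. The lower one was MCM6, a subunit of the replicative helicase, with 3 reads in YK and 7 in SH (interval -3.81 to 0.91). The higher one was KRP1, an inhibitor of cyclin-dependent kinases, with 9 reads in YK and 1 in SH (interval 0.32 to 8.62). No direction is read from so few genes. The median log2 ratio of the 5 genes with at least 10 reads was 0.74, against 0 for all genes with at least 10 reads. The gene of this list with the most reads, Thhalv10001641m.g, had 17 in YK and 24 in SH, with a log2 ratio of -0.49 (interval -1.49 to 0.46). Summed over all 15 genes there were 155 RPM in YK and 120 RPM in SH. RPA70C and CDC20.1 had no reads in SH and only 1 and 2 in YK, too few to compare. The part of dividing cells in the difference of H2A 6 was not tested.

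HDT1 (Thhalv10002782m.g, best hit AT3G44750) is a histone deacetylase of the plant-specific HD2 family, known in Arabidopsis for its place in the nucleolus and for the silencing of ribosomal RNA genes. It lies on scaffold 4 from 11239093 to 11241028. There were 13 reads in YK (Poisson interval 6.92 to 22.2) and 69 in SH (53.7 to 87.3), or 30.1 RPM in YK and 143 RPM in SH. The log2 ratio was -2.36 (interval -3.39 to -1.54), 5.15-fold lower in YK (2.91 to 10.5). Among 2818 genes with a total within 2-fold of its own, 28 or 0.994% had a ratio as low or lower, HDT1 included. Taken in the same way, the share was 1.16% for ING1, 2.8% for SCC3, 1.4% for AGO9 and 65.3% for PKL. The genes were chosen with their reads known, so these shares only describe where they lie.

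The other genes tied to histone deacetylation had fewer reads or no such difference. HDA9 (Thhalv10002540m.g), a deacetylase of the RPD3 type and so of another family than HDT1, had 3 reads in YK and 8 in SH. Its log2 ratio of -1.28 was past 2-fold, but the interval of -3.96 to 0.64 included a ratio of 1. SAP18 (Thhalv10001671m.g), a subunit of deacetylase complexes, had 39 reads in YK and 37 in SH, with a log2 ratio of 0.07 (interval -0.61 to 0.77), and this interval lay above that of HDT1.

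ING1 (Thhalv10002653m.g, best hit AT3G24010) belongs to the ING family, whose PHD finger binds histone H3 methylated on lysine at active genes. It lies on scaffold 4 from 7432849 to 7435378, on the same scaffold as HDT1. It had 5 reads in YK (Poisson interval 1.62 to 11.7) and 35 in SH (24.4 to 48.7), or 11.6 RPM in YK and 72.6 RPM in SH. The log2 ratio was -2.69 (interval -4.52 to -1.45), 6.45-fold lower in YK (2.73 to 22.9). The interval spanned 3.07 on the log2 scale, against 1.10 for H2A 6, since few YK reads bound it.

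Of the other readers, GAS41 (Thhalv10000994m.g), a YEATS-domain protein of the SWR1 and NuA4 complexes, ran the other way. It had 16 reads in YK and 5 in SH, with a log2 ratio of 1.58 (interval 0.16 to 3.48), past 2-fold higher in YK. MBD5 (Thhalv10002683m.g), which binds methylated DNA, had 3 reads in YK and 8 in SH, and its interval (-3.96 to 0.64) included a ratio of 1. MBD1 and VIM1 had fewer than 10 reads each in the libraries together. Apart from ING1, 2 readers had at least 10 reads. Of these, 1 was past 2-fold lower in YK and 1 past 2-fold higher, against 10.7% of all genes in each direction. No direction for the readers is read from so few genes.

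**Figure D2:**
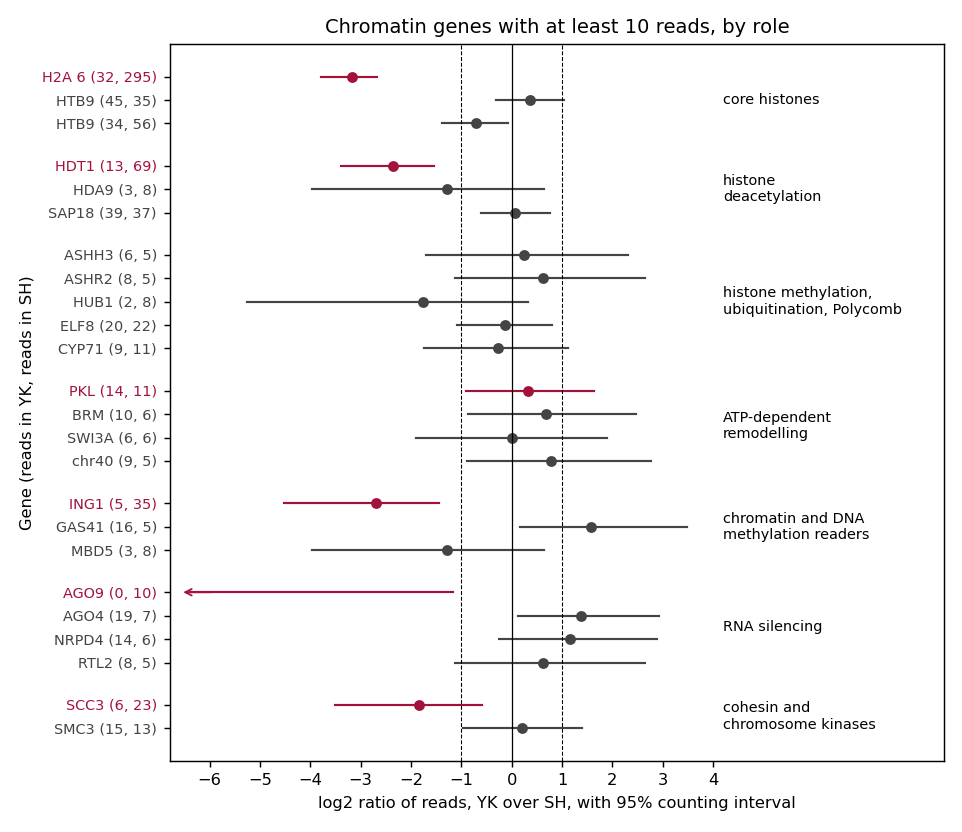
Log2 ratio of reads (YK over SH) with its 95% counting interval for each chromatin gene with at least 10 reads, grouped by role, with reads in YK and then SH in brackets; the 6 genes described are in red, and dashed lines mark 2-fold. AGO9 had no reads in YK and is drawn as an upper bound of -1.16; H2A 6, HDT1, ING1 and SCC3 lie left of their groups, and PKL lies within its own.

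SCC3 (Thhalv10001288m.g, best hit AT2G47980) encodes the cohesin subunit that binds the ring from outside and is needed for chromatid cohesion in mitosis and meiosis. The locus spans 6616 bp of scaffold 22 from 1804264 to 1810879. It had 6 reads in YK (Poisson interval 2.20 to 13.1) and 23 in SH (14.6 to 34.5), or 13.9 RPM in YK and 47.7 RPM in SH. The log2 ratio was -1.85 (interval -3.52 to -0.60), 3.62-fold lower in YK, and the interval allowed as little as 1.52-fold. SMC3 (Thhalv10001887m.g), one of the long arms of the same ring, had 15 reads in YK and 13 in SH, with a log2 ratio of 0.20 (interval -0.97 to 1.40). The intervals of these cohesin genes overlapped, which by itself does not show whether their ratios differ. No direct comparison was run, and SCC3 was chosen with its reads known, so this is a description only. The kinases AUR2 and AUR3, which act on chromosomes in mitosis, had 3 reads each in YK and 1 each in SH.

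The SCC3 locus shares 686 bp with Thhalv10001392m.g, which had no reads in YK and 1 in SH. Reads that fell on both loci were assigned to neither in the counting mode used, and the library did not keep the strand. The SCC3 count may therefore leave out reads from this shared stretch.

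AGO9 (Thhalv10015551m.g, best hit AT5G21150) is named after an Argonaute that in A. thaliana acts in ovules. There it limits which cells enter the germ line and silences transposable elements. The locus lies on scaffold 2 from 7113579 to 7115626. It is 2048 bp long, against 6182 bp for the AGO4 locus and 5332 bp for the AGO10 locus. Whether it holds a whole Argonaute gene was not tested. AGO9 had no reads in YK (upper Poisson bound 3.69) and 10 in SH (4.79 to 18.4), or 0 RPM in YK (upper Poisson bound 8.55) and 20.7 RPM in SH. The interval placed the log2 ratio below -1.16, so AGO9 was at least 2.24-fold lower in YK by counting error. With the SH count taken as exact and YK set at the floor of 3 reads, the fold is 3.33. Of all genes with at least 10 reads, 0.747% had reads in SH only and 0.389% in YK only. Because AGO9 had exactly 10 reads, all in SH, it would leave the set under any higher minimum. Its calls past a fold follow from reaching that minimum.

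The 3 other genes of RNA silencing with at least 10 reads had more reads in YK. AGO4 (Thhalv10001902m.g), the Argonaute of RNA-directed DNA methylation in leaves and closely related to AGO9, had 19 reads in YK and 7 in SH. Its log2 ratio was 1.38 (interval 0.13 to 2.93), past 2-fold higher in YK. NRPD4 (Thhalv10001026m.g), a subunit shared by the plant-specific RNA polymerases IV and V, had 14 reads in YK and 6 in SH, with a log2 ratio of 1.16 (interval -0.25 to 2.89). RTL2 (Thhalv10000947m.g), an RNase III-like enzyme, had 8 reads in YK and 5 in SH. The rest had fewer than 10 reads and ran in no single direction. AGO10 had 3 reads in YK and 6 in SH, RTL3 had 5 and 4, and of the genes with the best hit SE, Thhalv10001919m.g had 0 in YK and 1 in SH and Thhalv10001921m.g had 3 in each. Of the 3 other silencing genes with enough reads, 2 were past 2-fold higher in YK and none lower, against 10.7% of all genes in each direction. The interval of NRPD4 included a ratio of 1, and no direction for RNA silencing is read from so few genes.

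Messages of flowers and pollen were checked beside AGO9, since whole rosettes could hold young flower buds. Of the 4 genes on that list none reached 10 reads, with sums of 3 reads in YK and 8 in SH, or 6.95 RPM in YK and 16.6 RPM in SH. FLA3 and MYB81 had no reads in YK and AGL6 none in SH. The part of floral tissue in the reads of AGO9 was not tested. For comparison, 6 genes of photosynthetic leaves summed to 1296 reads in YK and 1336 in SH. Scaled to RPM the order turns, with 3002 RPM in YK and 2770 RPM in SH. The 5 of them with enough reads had log2 ratios between -0.71 and 0.58, none past 2-fold. In the guard cell lineage, of FMA, EPF1 and KAT1 only FMA reached 10 reads, and IRT1, a root gene, had 1 read in YK and 2 in SH.

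PKL (Thhalv10000014m.g, best hit AT2G25170) is a remodeller of the CHD3 type, known in A. thaliana for keeping embryonic genes off after germination. Its locus is the longest of the group, 10394 bp of scaffold 15 from 5185917 to 5196310. It had 14 reads in YK (Poisson interval 7.65 to 23.5) and 11 in SH (5.49 to 19.7), or 32.4 RPM in YK and 22.8 RPM in SH. The log2 ratio was 0.33 and its interval of -0.90 to 1.63 left room for a ratio between 1.86-fold lower and 3.10-fold higher in YK. Equal expression is therefore not shown at this depth. The interval of PKL did not overlap with those of H2A 6, HDT1, ING1 or AGO9, but overlapped with that of SCC3. These genes were chosen with their reads known, so this is a description only.

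The other remodellers had few reads. BRM (Thhalv10001280m.g), an ATPase of SWI/SNF complexes, had 10 reads in YK and 6 in SH, SWI3A (Thhalv10001411m.g), a further SWI/SNF subunit, had 6 in each, and chr40 (Thhalv10002375m.g), a SNF2-type protein, had 9 in YK and 5 in SH. PKR1, a relative of PKL, had 4 reads in each library and CHR34 a single read in YK. None of the 4 remodellers with enough reads was past 2-fold, and no remodeller had more reads in SH.

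**Figure D3:**
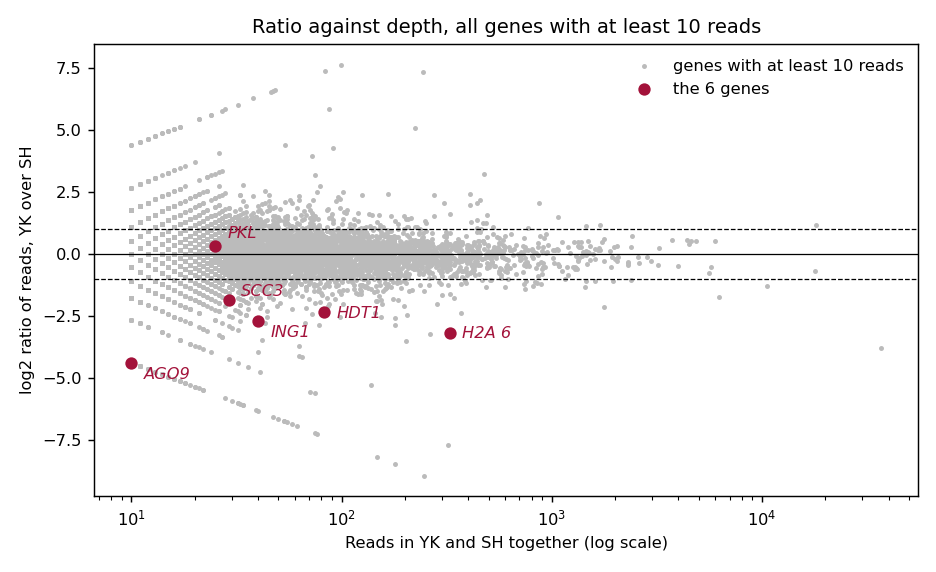
Log2 ratio of reads (YK over SH, 0.5 reads added) against reads in both libraries together (log scale) for the 10036 genes with at least 10 reads (grey), with the 6 genes in red and dashed lines at 2-fold. The spread of grey points narrows with depth, and H2A 6, with 327 reads, lies far below the band of genes with similar depth.

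The enzymes that add marks to histones were mostly too shallow to compare. Of 12 such genes and their Polycomb partners, 7 had fewer than 10 reads, among them CLF, the methyltransferase of Polycomb repressive complexes, with no reads in YK and 2 in SH, and VRN5, its PHD-finger partner, with 5 in YK and 2 in SH. HUB1 (Thhalv10001306m.g), which attaches ubiquitin to H2B, had 2 reads in YK and 8 in SH, past 2-fold lower in YK but with an interval of -5.27 to 0.33. ELF8 (Thhalv10002377m.g), a subunit of the PAF1 complex that accompanies transcription, had 20 reads in YK and 22 in SH, with a log2 ratio of -0.13 (interval -1.09 to 0.80). CYP71, ASHH3 and ASHR2 were within 2-fold as well.

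Apart from the members, the chromatin lists held 35 genes, of which 18 had at least 10 reads. Of these 18, 3 were past 2-fold lower in YK (HDA9, HUB1 and MBD5) and 3 past 2-fold higher (GAS41, AGO4 and NRPD4), which is 16.7% in each direction against 10.7% of all genes in each. The median log2 ratio of the 18 genes was 0.22, against 0 for all genes with at least 10 reads. The interval left out a ratio of 1 for none of the 3 lower genes and for 2 of the 3 higher ones. The names available cover only part of the genome, so these genes are no full account of the chromatin machinery. The lists kept to the stretch of gene numbers named without regard to reads, so H2A 6 and AGO9 fall outside them. Among the 18 genes, the ratio nearest to that of SCC3 was that of HUB1, 0.08 away on the log2 scale, and the nearest to PKL was that of Thhalv10002699m.g, 0.03 away. For H2A 6, HDT1, ING1 and AGO9 no gene of the 18 came within 0.5 of the ratio. Likeness here is of a single ratio over 2 libraries.

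Levels within a library can be compared per kb of locus, a length that includes introns. In YK the order was H2A 6 (41.4 reads per kb), HDT1 (6.72), ING1 (1.98), PKL (1.35), SCC3 (0.907) and AGO9 (none). In SH it was H2A 6 (382 reads per kb), HDT1 (35.6), ING1 (13.8), AGO9 (4.88), SCC3 (3.48) and PKL (1.06). Only the first step of the YK order, between H2A 6 and HDT1, was wider than the Poisson intervals. In SH the intervals of neighbouring genes overlapped only between AGO9 and SCC3. PKL, the lowest of the group in SH, stood above SCC3 and AGO9 in YK, though its interval there overlapped with both.

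Within 10 kb of the 6 loci lay 19 other genes with reads, of which 6 had at least 10. H2A 6 had 4 of these, and 1 was past 2-fold lower in YK, 1 past 2-fold higher and 2 neither. The lower one, Thhalv10014932m.g, 9061 bp away, had 9 reads in YK and 30 in SH, with a log2 ratio of -1.68 (interval -3.0 to -0.63). It ran the same way as H2A 6 and was the only one of the 19 whose interval left out a ratio of 1. Of all genes with at least 10 reads, 10.7% were past 2-fold in each direction. In either direction, 11.9% were past 2-fold with an interval that left out 1, so nothing is read from this neighbour. The higher one, Thhalv10013844m.g, 9331 bp away, had 11 reads in YK and 4 in SH, with an interval (-0.30 to 3.57) that included a ratio of 1. The nearest gene to H2A 6, Thhalv10015391m.g, 1011 bp away, had 1 read in YK and none in SH. Near AGO9, Thhalv10014670m.g, 9286 bp away, had 167 reads in YK and 205 in SH, with a log2 ratio of -0.29 (interval -0.60 to 0.01). Near SCC3, Thhalv10001363m.g had 13 reads in YK and 9 in SH. The single detected neighbour of each of HDT1, ING1 and PKL had fewer than 10 reads.

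**Figure D4:**
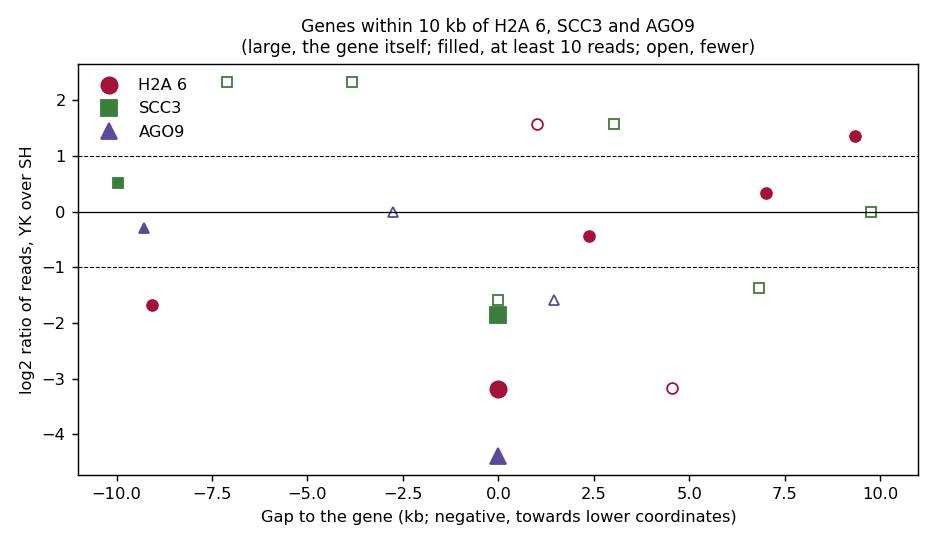
Log2 ratio of reads (YK over SH, 0.5 reads added) of genes within 10 kb of H2A 6 (circles), SCC3 (squares) and AGO9 (triangles) against the gap in kb; large symbols are the genes themselves, filled symbols have at least 10 reads and open ones fewer. Filled neighbours lie between -1.68 and 1.35, above the gene they surround.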

How the data were processed

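The deposited counts are raw reads per gene, 1 column each for YK and SH. The authors trimmed pyrosequencing reads, aligned them to the JGI genome of SH and counted reads with a unique position. The submitters' processing notes name GSNAP v2012-11-27 (the methods name GMAP), Cufflinks for added loci and HTSeq v0.5.4p5, which the methods ran in union mode. Strand was not kept. YK reads were thus mapped to an SH genome, and the effect on YK counts was not tested. The table's remaining columns hold the comparison made by the authors (fold, p and adjusted p) and were not used, and 1 blank row was left out.

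Size factors, ratios and intervals were computed with numpy 2.4.6 and scipy 1.17.1, and TMM factors with edgeR 4.0.16; the code was tested on simulated counts. Genes with at least 10 reads in both libraries together were compared with a fold of 2. No test was run, since each accession has 1 library and the members were chosen from these reads. Members and lists were chosen with earlier results of these data known. Symbols come from best A. thaliana hits in the 1998 named rows at hand, and lists use gene numbers up to Thhalv10003146m.g. Genes named are the members, the 7 chromatin lists, examples from the replication and marker lists, and detected neighbours within 10 kb. MCM6, KRP1, RPA70C, CDC20.1 and Thhalv10001641m.g were named after their reads were seen. Alternatives were other scalings, read minimums, folds and added reads.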

Additional observations from a re-analysis of the deposited data

How the results depend on the processing

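Every log2 ratio of the 6 genes kept its sign under total reads, TMM, total reads less the 5 most abundant genes per library, and 1 or (AGO9 apart) 0 reads added, and stayed within its counting interval; total reads raise each ratio by 0.16. The number of the 6 genes lower in YK was 4 past 4-fold, where SCC3 drops out. It was 4 with at least 20 reads, where AGO9 leaves the set, and 5 in every other alternative. None of the 6 was higher. Of the 18 other chromatin genes, 3 were lower and 3 higher in YK. With at least 20 reads none of 9 was lower and 3 were higher, and with no minimum 8 of 35 were lower and 7 higher. Past 1.5-fold 4 of the 18 were lower and 7 higher, and past 4-fold 0 were lower and 0 higher. With an interval that leaves out 1, 0 were lower and 2 higher. Over all 10036 genes with at least 10 reads, 1071 were past 2-fold lower and 1077 higher. These became 569 and 500 of 6629 genes with at least 20 reads, and 3309 and 3416 of 17888 with no minimum. Of the 10036 genes, they became 2139 and 2170 past 1.5-fold and 227 and 195 past 4-fold. With an interval that leaves out 1 they became 643 and 556 of the 10036. Stricter settings keep fewer genes by construction.

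No paired analysis was possible because each accession has 1 library. Depth limits the comparison most for AGO9, SCC3, ING1 and PKL, with 10 to 40 reads each in the libraries together. The accessions and their libraries cannot be told apart.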
